A study of Homo sapiens with 6 samples.

Results

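The 10 genes described here are targets of the transcription factor p53 that act in cell death, and they were taken from the deposited gene table by their symbols: TNFRSF10B, TNFRSF10A, FAS, BBC3, BAX, PMAIP1, AEN, TP53I3, PHLDA3 and TRIAP1. All 10 were among the 17047 genes of the table, and all 10 were among the 12959 genes that passed the filter on low counts and were tested. The cells were HCT116, an established human colorectal carcinoma line. They were transduced with a viral vector encoding either a shRNA against PLEK2 (PLEK2 knockdown, 3 libraries) or a non-targeting shRNA (shNC, 3 libraries), and polyadenylated RNA was read as single-end reads of 50 nt. The shNC cells thus also carried a virus and a shRNA, and the study lists a single PLEK2 shRNA, so an effect of that hairpin other than on PLEK2 cannot be told apart from the knockdown. The labels number the libraries 1 to 3 in each group, without saying whether they came from separate cultures, so the p-values measure only the spread between these libraries, which may be technical.

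p53 is a transcription factor that is stabilised when DNA is damaged or replication is disturbed, and it binds DNA as a tetramer through paired decamers near its target genes. Its death targets act at several points. Death receptors on the cell surface (FAS and the TRAIL receptors) recruit the adaptor FADD and activate caspase-8, whereas BCL2 family members permeabilise the outer mitochondrial membrane and release cytochrome c, which activates caspase-9 through APAF1. Other p53 targets add a nuclease, an oxidoreductase and a brake on AKT, and some, such as TRIAP1, counter death rather than promote it.

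The sequences behind the comparison were the target of the PLEK2 shRNA and the p53 elements found close to the start of the members. The shRNA target is shown because it defines the knockdown group, and it is written in capitals throughout since all 21 bases are the target. It matched transcripts of PLEK2 and of no other gene in GENCODE v44, on the minus strand at chr14:67397753-67397773 (GRCh38), within the coding sequence in exon 2 of 9 of the full-length transcript.
PLEK2 shRNA target: GCTGGTGTACTACAAGCTTGA
For the p53 elements, RefSeq windows of 300 bases (250 before to 50 after a gene start, GRCh38.p14) were searched for an exact p53 consensus decamer on both strands, and 7 of the 10 genes had a window (9 windows in all). An exact decamer lay in the windows of 2 genes, FAS and AEN, which is 2 of 7 genes with a window (28.6%) beside 8.06% of all genes, and in 2329 of 35116 windows overall (6.63%). In both, a second decamer followed with no spacer and with 2 mismatches, a pairing (2 decamers, at most 2 mismatches and a spacer of at most 13 bases) that 2.93% of all windows held. Capitals mark the exact decamer.
FAS: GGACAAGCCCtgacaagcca
AEN: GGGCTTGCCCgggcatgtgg
The FAS element lay on the plus strand at chr10:88991309-88991328, 122 to 103 bases before 1 of its 3 RefSeq starts and inside an exon of 8 annotated FAS transcripts. The AEN element lay on the plus strand at chr15:88621306-88621325, 34 to 15 bases before the start of AEN. These are matches of letters in a window, and binding of p53 was not measured in these libraries.

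Estimated counts summed to between 14377532 and 15602732 per library, and levels are given as CPM, read counts scaled to a common library total with edgeR's TMM factors (0.984 to 1.021). The epithelial markers EPCAM, CDH1, KRT8, KRT18 and KRT19 were present in every library. LGALS4, another epithelial marker, was at or below 0.36 FPKM (counts scaled to transcript length and library total, a level per length). Among markers of other cell types, CD3E, COL1A2 and PECAM1 did not exceed 0.05 FPKM, while CD68 and COL1A1 reached 31.3 and 5.94 FPKM. The targeted gene PLEK2 had 80.5 ± 6.98 CPM with shNC and 27.7 ± 10.2 CPM with the knockdown (SD, n = 3 each), and its log2 ratio was -2.42, -1.17 and -1.25 in the pairs of libraries numbered 1, 2 and 3. Libraries with the same number deviated together from their group means, so each gene was tested both without and with the replicate number as a block in edgeR's quasi-likelihood test, where the block compares the libraries within their pairs.

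After PLEK2 knockdown, 9 of the 10 death targets had a positive log2 fold change, the largest for TP53I3 (0.29), FAS (0.27) and BBC3 (0.23), and the remaining gene, TNFRSF10A, was at -0.0034. None of them passed an adjusted p of 0.05. The median of the 10 log2 fold changes was 0.14, beside -0.0021 over all genes tested. In edgeR's test without the block, 0 of the 10 genes passed after Benjamini-Hochberg adjustment over all 12959 genes, as did 0.0% of all genes. At an unadjusted p under 0.05 the count was 1 gene, TNFRSF10B, against 3.09% of all genes (400 genes). DESeq2's Wald test and limma-trend on log2(FPKM + 1) also called 0 of the 10, with 12 and 0 calls among all genes. With the replicate block, edgeR again called 0 of the 10, against 0.849% of all genes. The block left 3 of them (TNFRSF10B, FAS and TRIAP1) higher at an unadjusted p under 0.05, a share to be read against 7.89% of all genes. The number of positive fold changes rested in part on PLEK2 knockdown replicate 1, without which it was 6 of 10 and the median was 0.034, beside -0.0083 over all genes. The median was 0.24 without PLEK2 knockdown replicate 2, and between 0.12 and 0.21 when any other library was left out. These fits with 1 library left out had no block. With the block and without both libraries of pair 1, 8 of the 10 were positive and the median was 0.099, beside 0.0035 over all genes. In bulk RNA, a higher level in every cell and a larger number of cells with the transcript cannot be told apart.

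**Figure D1:**
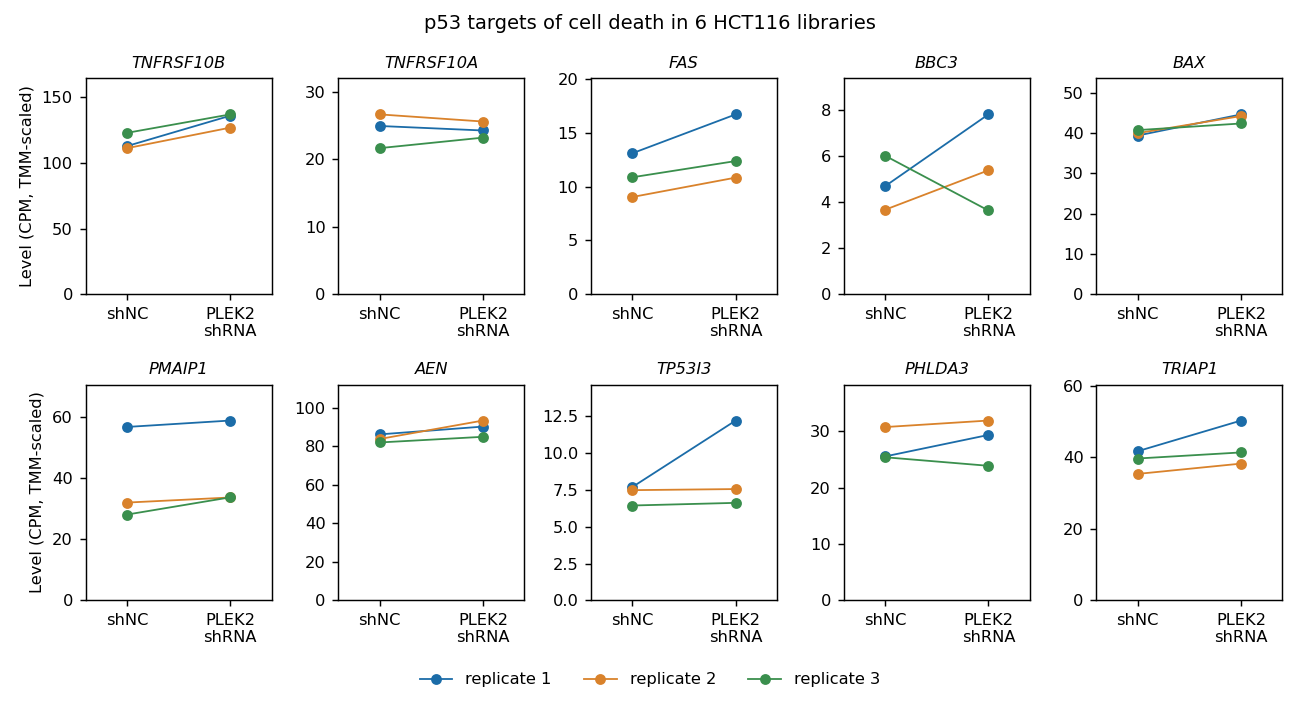
Levels of the 10 genes (CPM, linear axes from 0) in each library, with shNC on the left and PLEK2 knockdown on the right of each panel and lines joining libraries of the same replicate number. TNFRSF10B and BAX are the genes whose 3 knockdown points all lie above their 3 shNC points, and PMAIP1 shows replicate 1 apart from the others in both groups (56.7 and 58.8 CPM).

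The death receptors were examined first. TNFRSF10B encodes DR5, a receptor for the ligand TRAIL (NCBI Gene 8795, minus strand of chromosome 8 from 23020133 to 23069031 in GRCh38). Its level was 112.9, 111.3 and 123.0 CPM in shNC replicates 1, 2 and 3 and 136.1, 127.0 and 137.1 CPM in the corresponding knockdown libraries. Every knockdown library was above every shNC library, and the gene was higher in all 3 pairs. The log2 fold change was 0.20 (standard error 0.08, 95% interval 0.023 to 0.39), and edgeR's test gave an unadjusted p of 0.0314 and a Benjamini-Hochberg adjusted p of 0.968. With the replicate block it was 0.21 (standard error 0.05, 95% interval 0.09 to 0.32), and the adjusted p from edgeR was 0.0898. When library totals replaced TMM in the blocked fit, TNFRSF10B passed with an adjusted p of 0.0493 from edgeR, as did 1.48% of all genes. TNFRSF10B shares 377 exonic bases with RHOBTB2 on the opposite strand, its estimated count was not whole in 4 of 6 libraries, and whether counting used strand was not given in the sources used here.

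TNFRSF10A encodes DR4, the other TRAIL receptor that carries a death domain (NCBI Gene 8797, minus strand of chromosome 8 from 23190452 to 23225102 in GRCh38). It stood at 24.96, 26.68 and 21.67 CPM with shNC and at 24.29, 25.62 and 23.23 CPM with the knockdown, so the groups overlapped throughout. The log2 fold change of -0.0034 had a 95% interval of -0.26 to 0.25, and with the block the interval was -0.17 to 0.17 around -0.0014. A difference as large as that of TNFRSF10B was therefore inside the first interval and outside the second. Its sign depended on the scaling, being positive (0.028) with library totals.

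FAS, the receptor for FAS ligand, had the lowest level of the 3 receptors (NCBI Gene 355, plus strand of chromosome 10 from 88953813 to 89029605 in GRCh38). It had 13.1, 9.04 and 10.9 CPM with shNC and 16.7, 10.8 and 12.4 CPM with the knockdown. Replicate 1 was highest in both groups, and the knockdown library was the higher of each pair. The log2 fold change was 0.27 (standard error 0.20, 95% interval -0.17 to 0.72). With the block the standard error was 0.10 and the interval 0.046 to 0.50, with an unadjusted p of 0.022 and an adjusted p of 0.194 from edgeR's test. Without PLEK2 knockdown replicate 1 and without the block, the log2 fold change was 0.076, and without shNC replicate 1 it was 0.43. When a whole pair was left out of the blocked fit, it was 0.23 without pair 1, 0.29 without pair 2 and 0.32 without pair 3. The FAS count was not whole in 5 of 6 libraries. Its exons overlap the protein-coding genes ACTA2, on the opposite strand by 387 bases, and STAMBPL1, on the same strand.

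The mitochondrial group held BAX, BBC3 and PMAIP1, members of the BCL2 family that promote death. BAX, which forms the pores in the outer mitochondrial membrane (NCBI Gene 581, plus strand of chromosome 19 from 48954815 to 48961798 in GRCh38), had 39.4, 40.0 and 40.8 CPM with shNC and 44.7, 44.3 and 42.4 CPM with the knockdown. The knockdown libraries were all higher than the shNC libraries, with an SD of 0.68 CPM in shNC and 1.21 CPM in the knockdown. BAX and TNFRSF10B were the 2 of the 10 genes whose groups did not overlap with the knockdown higher, as was the case for 4.08% of all genes. The log2 fold change of BAX was 0.13 (standard error 0.08, 95% interval -0.06 to 0.32) without the block and 0.13 (standard error 0.06, 95% interval -0.012 to 0.27) with it. Its adjusted p from edgeR was 0.968 and 0.315, respectively.

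BBC3 encodes PUMA, a BH3-only protein that binds and neutralises the protective BCL2 proteins (NCBI Gene 27113, minus strand of chromosome 19 from 47220822 to 47232766 in GRCh38). It was the gene with the fewest reads of the 10, at 52 to 123 per library. Its level was 4.69, 3.67 and 6.02 CPM with shNC and 7.82, 5.39 and 3.64 CPM with the knockdown. Pairs 1 and 2 were higher with the knockdown and pair 3 was lower, by more than the counting standard error in each case. The log2 ratios were 0.74, 0.55 and -0.73, with counting standard errors of 0.21, 0.26 and 0.25. The log2 fold change was 0.23 (95% interval -0.43 to 0.89) without and 0.22 (95% interval -0.29 to 0.72) with the block, the latter the widest blocked interval of the 10 genes, and edgeR gave an adjusted p of 0.655 with the block.

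PMAIP1 encodes NOXA, a BH3-only protein that binds MCL1 (NCBI Gene 5366, plus strand of chromosome 18 from 59899996 to 59904305 in GRCh38). It had 56.7, 32.0 and 28.0 CPM with shNC and 58.8, 33.6 and 33.7 CPM with the knockdown. Replicate 1 was far above replicates 2 and 3 in both groups, and within each pair the knockdown library was slightly higher. The log2 ratios within the pairs were 0.053, 0.073 and 0.26, with counting standard errors between 0.068 and 0.096. The block reduced the standard error of the PMAIP1 log2 fold change from 0.30 to 0.07, around 0.11 and 0.12. The 95% interval went from -0.56 to 0.79 without the block to -0.028 to 0.27 with it, and edgeR's adjusted p was 0.979 and 0.367, respectively.

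The remaining 4 genes act outside the receptors and the BCL2 family. AEN, a nuclease that degrades DNA and RNA in dying cells (NCBI Gene 64782, plus strand of chromosome 15 from 88621337 to 88632281 in GRCh38), had 86.1, 83.7 and 81.9 CPM with shNC and 90.2, 93.3 and 84.9 CPM with the knockdown. It was higher with the knockdown in each pair, but the lowest knockdown library lay below the highest shNC library. Its log2 fold change was 0.09 (95% interval -0.09 to 0.27 without and -0.03 to 0.21 with the block).
TP53I3 encodes the quinone oxidoreductase PIG3 (NCBI Gene 9540, minus strand of chromosome 2 from 24077433 to 24085861 in GRCh38). It had 7.69, 7.48 and 6.44 CPM with shNC and 12.2, 7.56 and 6.62 CPM with the knockdown. Its positive log2 fold change of 0.29 (95% interval -0.24 to 0.81) rested on knockdown replicate 1. The ratios within the pairs were 0.67, 0.014 and 0.04, and without that library the log2 fold change was -0.024.

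PHLDA3 encodes a PH domain protein that competes with AKT for membrane lipids and so restrains a survival signal (NCBI Gene 23612, minus strand of chromosome 1 from 201464278 to 201469237 in GRCh38). It had 25.6, 30.8 and 25.4 CPM with shNC and 29.4, 31.9 and 23.9 CPM with the knockdown, and replicate 2 was highest in both groups. The log2 fold change of 0.06 had a 95% interval of -0.25 to 0.37 without the block and of -0.11 to 0.23 with it. TRIAP1, a small mitochondrial protein that helps to move lipids between the membranes and protects from apoptosis (NCBI Gene 51499, minus strand of chromosome 12 from 120443964 to 120446384 in GRCh38), had 41.7, 35.4 and 39.7 CPM with shNC and 50.3, 38.2 and 41.4 CPM with the knockdown. It was higher with the knockdown in each pair and most so in pair 1. Its log2 fold change was 0.15 (standard error 0.12 without and 0.07 with the block), with an unadjusted p of 0.047 and an adjusted p of 0.265 from edgeR with the block.

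**Figure D2:**
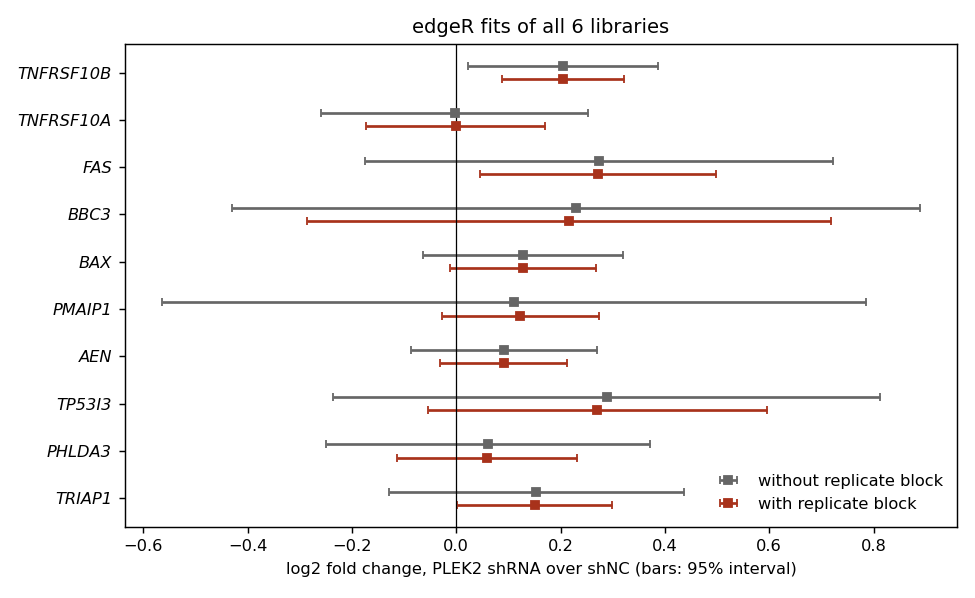
Log2 fold change of each gene, PLEK2 knockdown over shNC, with 95% intervals from edgeR fits of all 6 libraries without (grey) and with (red) the replicate block. The block narrows the interval of PMAIP1 most, and with it the intervals of TNFRSF10B, FAS and TRIAP1 lie above 0.

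Within the same-numbered pairs, 9, 9 and 8 of the 10 genes were higher with the knockdown in pairs 1, 2 and 3, where 50.2%, 48.7% and 49.8% of all genes were. The median log2 ratio of the 10 genes was 0.24 in pair 1, 0.13 in pair 2 and 0.059 in pair 3, beside 0.00099, -0.0044 and -0.00083 over all genes tested. Pair 1, in which PLEK2 was lowest relative to shNC (-2.42), also had the largest median of the death targets. Pairs 2 and 3 were in the reverse order, with PLEK2 at -1.17 and -1.25 and medians of 0.13 and 0.059. With 3 pairs the relation between both was not tested. The genes that were higher in all 3 pairs were 7 of the 10 (TNFRSF10B, FAS, BAX, PMAIP1, AEN, TP53I3 and TRIAP1), beside 19.9% of all genes. By that choice the 7 genes are also higher in pairs 2 and 3, and no other member was higher in both, beside 31.2% of all genes. TNFRSF10B had ratios of 0.27, 0.19 and 0.16 in the 3 pairs, each at least 3 times its counting standard error of 0.05. For 5 of the 7 genes at least 1 ratio was smaller than its counting standard error, namely in pair 3 for BAX, AEN and TRIAP1, in pairs 1 and 2 for PMAIP1, and in pairs 2 and 3 for TP53I3. The middle 80% of all genes lay between -0.29 and 0.33 in pair 1, -0.25 and 0.21 in pair 2, and -0.30 and 0.25 in pair 3. BBC3 lay outside these ranges in all 3 pairs, FAS in pairs 1 and 2, TP53I3 in pair 1 and PMAIP1 in pair 3, and the other ratios of the 10 genes lay inside them.

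**Figure D3:**
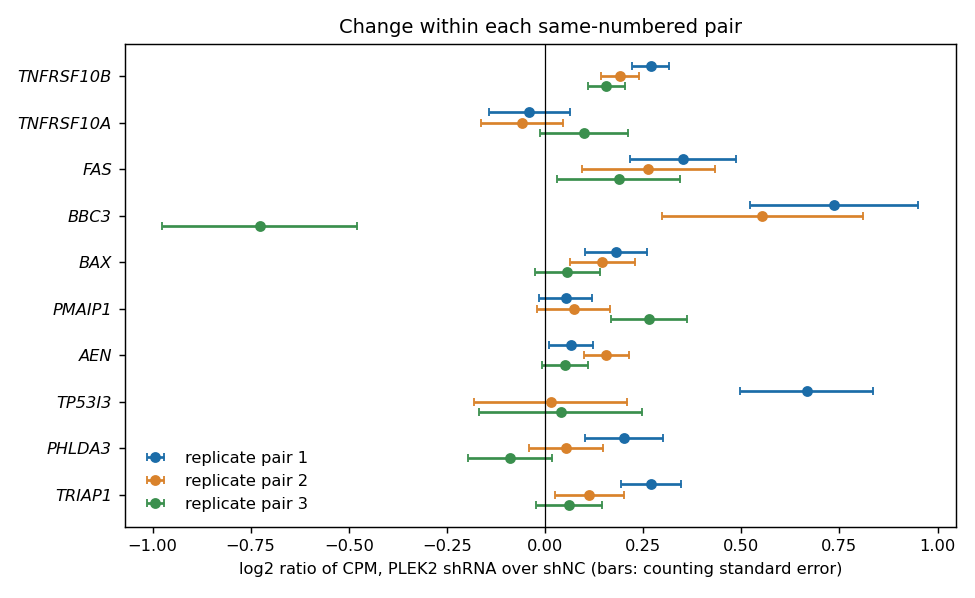
Log2 ratio of CPM, PLEK2 knockdown over shNC, within each same-numbered pair, with bars for the counting standard error. BBC3 spans the widest range (-0.73 to 0.74), whereas the 3 ratios of TNFRSF10B lie between 0.16 and 0.27.

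The spread between replicates differed widely among the 10 genes. The SD of log2 CPM over the 3 shNC libraries was 0.02 for BAX, 0.04 for AEN and 0.08 for TNFRSF10B, whereas it was 0.27 for FAS, 0.36 for BBC3 and 0.54 for PMAIP1. With the knockdown it was 0.04 for BAX, 0.06 for TNFRSF10B and 0.07 for AEN, and 0.46 for PMAIP1 and TP53I3 and 0.55 for BBC3. BAX, AEN and TNFRSF10B, the genes with the smallest spread in shNC, had at least 567 reads in every library, and PMAIP1 had 405 to 925. The median SD of the 10 genes was 0.15 with shNC and 0.21 with the knockdown, and over all genes it was 0.15 in both groups.

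For some of the 10 genes, much of this spread lay between replicate 1 and the other replicates. PMAIP1 in replicate 1 exceeded the mean of replicates 2 and 3 by 0.92 with shNC and by 0.80 with the knockdown on the log2 scale, and only 94 genes (0.726% of those tested) deviated at least as far in the same direction in both groups. FAS deviated by 0.40 and 0.53, as far as which 9.19% of genes did, and TRIAP1 by 0.16 and 0.34. For TP53I3 and BBC3, replicate 1 stood apart with the knockdown (0.79 and 0.82) and not with shNC (0.15 and -0.0028). Replicate 1 was the higher in both groups for 5 of the 10 genes, beside 36.7% of 12945 genes. The deviation of PMAIP1 in replicate 1 was larger than its difference between the groups (0.11). What set replicate 1 apart was not tested, since the labels give no batch or date.

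**Figure D4:**
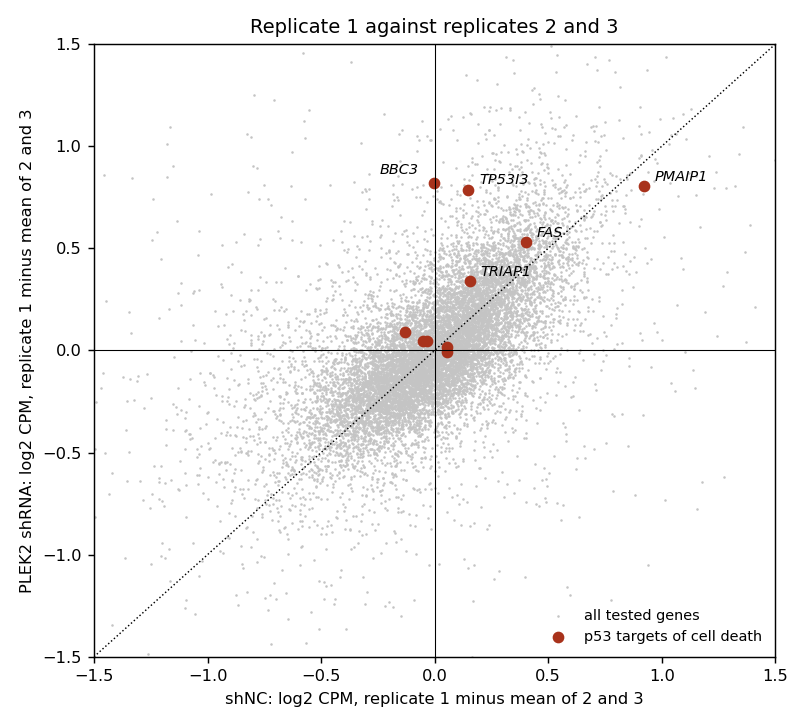
Log2 CPM of replicate 1 minus the mean of replicates 2 and 3, in shNC (horizontal axis) and PLEK2 knockdown (vertical axis), for all tested genes (grey) and the 10 death targets (red), with the dotted line marking equal values. PMAIP1 lies far to the upper right near that line, BBC3 and TP53I3 deviate mainly along the vertical axis, and 92 genes lie outside the plotted range of 1.5 in either direction.

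Levels per length were compared with the deposited FPKM values. BAX had the highest level of the 10 genes in shNC cells at 56.8 ± 0.78 FPKM (SD, n = 3), above 88.5% of the genes tested. TRIAP1 followed at 37.0 ± 3.07, then TNFRSF10B at 28.7 ± 1.77, AEN at 27.6 ± 0.53 and PMAIP1 at 21.4 ± 8.45 FPKM. TNFRSF10A was lower at 15.0 ± 1.5 and PHLDA3 at 10.4 ± 1.14 FPKM. The lowest levels were those of TP53I3 at 4.98 ± 0.43, FAS at 3.82 ± 0.78 and BBC3 at 2.97 ± 0.73 FPKM, the last above 23.6% of the genes tested. In this order, BAX, TRIAP1 and TNFRSF10B were separated from each other, as were TNFRSF10A, PHLDA3 and TP53I3. The libraries of TNFRSF10B and AEN, AEN and PMAIP1, PMAIP1 and TNFRSF10A, TP53I3 and FAS, and FAS and BBC3 overlapped. HCT116 cells thus carried more transcript per length of DR5 than of DR4, and less of FAS than of either. Among the BCL2 family members they carried more of BAX than of PMAIP1 or BBC3.

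CDKN1A, which encodes the cell cycle inhibitor p21, and MDM2, the ligase that degrades p53, are p53 targets outside cell death and were set beside these genes. CDKN1A had pair ratios of 0.48, 0.33 and 0.22 on the log2 scale, so its ratio was above that of TNFRSF10B in each pair, and as with TNFRSF10B it was largest in pair 1. MDM2 was lower in each pair (-0.41, -0.071 and -0.23). Its level was 117.8, 80.8 and 76.2 CPM with shNC and 88.7, 76.9 and 64.9 CPM with the knockdown, and replicate 1 was highest in both groups, as for PMAIP1. Without the block, the log2 fold change of MDM2 was -0.25, and it was -0.017 without shNC replicate 1. With the block, edgeR gave a log2 fold change of 0.35 for CDKN1A (adjusted p 0.0215) and of -0.24 for MDM2 (adjusted p 0.101), and without the block the adjusted p was 0.968 for both. CDKN1A also passed in the blocked edgeR fit without pair 1 (0.28, adjusted p 0.00289), as did 528 of 13014 genes. It passed without pair 3 as well (0.42, edgeR, adjusted p 0.000126), as did 297 of 12988 genes. In the blocked fit without pair 2, where 18 of 13003 genes passed, CDKN1A did not pass (0.37, edgeR, adjusted p 0.224). Without the block and without PLEK2 knockdown replicate 1, the log2 fold change of CDKN1A was -0.006. HIPK2, a kinase that phosphorylates p53, had a log2 fold change of 0.11 (edgeR without the block, adjusted p 0.968).

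Most partners of the death receptors had a log2 fold change below 0. Of the 12 genes listed (ligands, decoy receptors, adaptors and caspases), 10 were tested, 3 had a positive log2 fold change and 0 passed in either fit. Without and with the block, 0.0% and 0.849% of all genes passed. The 3 genes with a positive log2 fold change were CASP8, TNFRSF10C and TNFRSF10D, each higher in all 3 pairs (19.9% of all genes were). The median of the list was -0.05, beside -0.0021 over all genes. CASP8, the caspase that the receptors activate, had 30.2, 31.8 and 25.7 CPM with shNC and 36.6, 33.3 and 32.4 CPM with the knockdown. Its groups did not overlap, and its log2 fold change was 0.22 (edgeR, adjusted p 0.968 without and 0.152 with the block). TNFRSF10C, a decoy receptor that binds TRAIL without a death domain, had the larger log2 fold change (0.44) but only 1.60 CPM on average with shNC, and its 95% interval was -0.27 to 1.15. FADD (-0.12), CFLAR (-0.10) and RIPK1 (-0.02) were on the other side of 0, with adjusted p of 0.968, 0.968 and 0.987 from edgeR. The ligands TNFSF10 and FASLG were not analysed here.

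In the mitochondrial death pathway, 24 of 25 listed genes were tested and 16 had a positive log2 fold change, with a median of 0.07 beside -0.0021 over all genes, and 11 were higher in all 3 pairs (19.9% of all genes were). Without the block, 0 of them passed in edgeR's test, and 2 had an unadjusted p under 0.05, BCL2L11 and BCL2L1, beside 3.09% of all genes. BCL2L11 encodes BIM, a BH3-only protein like PUMA and NOXA. It had 88.7, 91.8 and 83.6 CPM with shNC and 110.4, 106.6 and 102.0 CPM with the knockdown, without overlap. With the block BCL2L11 rose by 0.27 on the log2 scale (standard error 0.06), the only gene of the list to pass (edgeR, adjusted p 0.0463, beside 0.849% of all genes), and it did not pass without pair 2. BCL2L1, which encodes the protective BCL-XL, had 218.3, 221.2 and 195.6 CPM with shNC and 142.0, 196.1 and 179.2 CPM with the knockdown. Its log2 fold change was -0.31 with the block (edgeR, adjusted p 0.0876), and the ratio was -0.62 in pair 1 against -0.17 and -0.13 in pairs 2 and 3. APAF1 had a positive (0.27) and BIRC5 a negative (-0.13) log2 fold change, neither of which passed in either fit over all 6 libraries.

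Among 20 other p53 targets with a role in cell death, 17 were tested, 14 had a positive log2 fold change and 6 were higher in all 3 pairs (19.9% of all genes were), with a median of 0.11. Without the block 0 of them passed in edgeR's test, and 1 (ZMAT3) had an unadjusted p under 0.05, beside 3.09% of all genes. The list is not separate from those above. It shares TNFRSF10C, TNFRSF10D and BID with the death receptor list, and APAF1 and CASP6 with the mitochondrial list. The 6 genes higher in all 3 pairs were ZMAT3, STEAP3 and the shared TNFRSF10C, TNFRSF10D, APAF1 and CASP6. ZMAT3, an RNA-binding zinc finger protein, had 42.5, 37.7 and 36.6 CPM with shNC and 58.1, 50.1 and 44.4 CPM with the knockdown, without overlap. With the block ZMAT3 rose by 0.38 on the log2 scale (standard error 0.07), and it was the only gene of the list to pass (edgeR, adjusted p 0.0215, beside 0.849% of all genes). Without pair 2, where 18 of 13003 genes passed with the block, ZMAT3 was not among them. Its log2 fold change exceeded that of each of the 10 death targets, although the difference between ZMAT3 and these genes was not tested. PIDD1, a scaffold that activates caspase-2, had a log2 fold change of -0.20 (edgeR, adjusted p 0.968 without and 0.152 with the block).

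The partners of PHLDA3 and TRIAP1 gave no call in the fits of all 6 libraries. PHLDA3 competes with AKT for lipids, and of 7 genes listed around AKT, 6 were tested and 0 passed in either fit, with a median of -0.034. AKT2 had 116.5, 126.7 and 134.8 CPM with shNC and 102.6, 111.3 and 118.7 CPM with the knockdown. Its log2 ratio was -0.18, -0.19 and -0.18 in the 3 pairs, so the pairs were alike while the groups overlapped, and the adjusted p from edgeR with the block was 0.104. PHLDA2, a relative of PHLDA3, had a log2 fold change of -0.13 (adjusted p 0.968, edgeR). TRIAP1 works with the PRELID lipid transfer proteins, of which 0 of 4 passed in either fit, with a median of -0.04. PRELID1 varied little within each group, with 180.7, 180.1 and 180.3 CPM with shNC and 171.3, 171.8 and 171.5 CPM with the knockdown, a log2 fold change of -0.07. PRELID3B had a log2 fold change of 0.10 (95% interval -0.16 to 0.36).

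**Figure D5:**
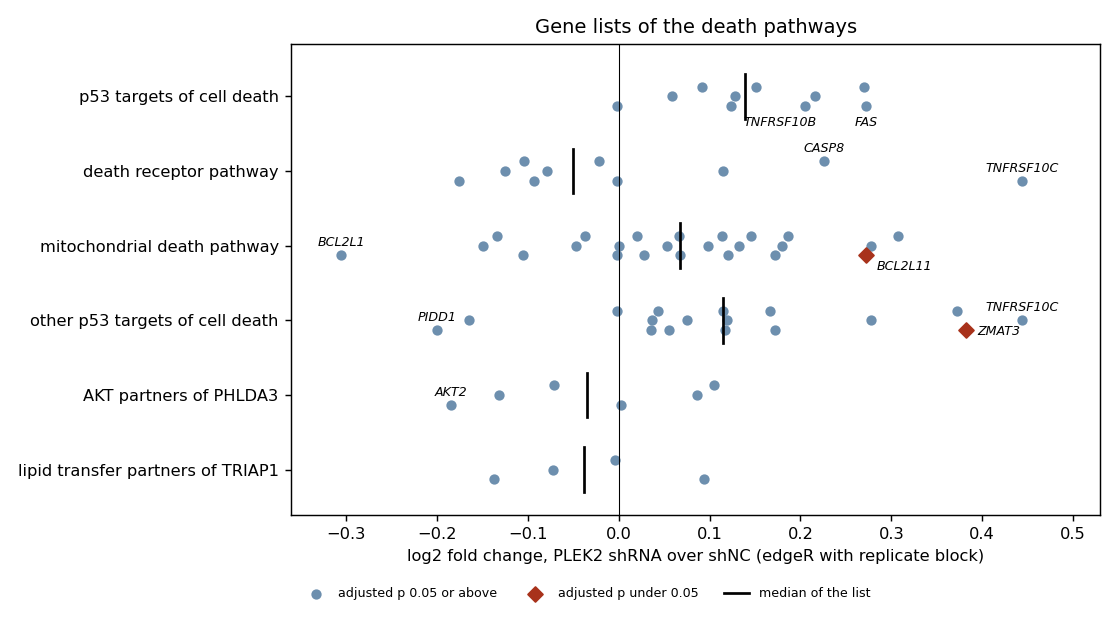
Log2 fold change, PLEK2 knockdown over shNC, from edgeR with the replicate block for each tested gene of the death lists, with black bars for the median of each list, red diamonds for genes with an adjusted p under 0.05, and small vertical offsets within a list to part the points. BCL2L11 and ZMAT3 are the genes that pass, and none of the 10 death targets in the top line does (median 0.14).

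The markers of the cell line were set beside these results. The summed level of the 6 listed markers was 5052 to 5805 FPKM with shNC and 4214 to 5372 FPKM with the knockdown, lowest in knockdown replicate 1. KRT19 had a log2 fold change of -0.20 and CDH1 of -0.32, and 0 of the 5 tested markers passed in edgeR's test of all 6 libraries, without or with the block. CDH1, KRT8, KRT18 and KRT19 were lower in all 3 pairs, while EPCAM had a log2 fold change of 0.00095. Other fits with the block are given here because a marker passed in them. KRT18 passed in DESeq2 (-0.24, adjusted p 0.0385), as did 57 of 12959 genes. KRT19 passed in edgeR without pair 1 (-0.19, adjusted p 0.0229), as did 528 of 13014 genes. CDH1 passed in edgeR without pair 3 (-0.44, adjusted p 0.000376), as did 297 of 12988 genes. The summed level of the markers of other cell types was 25.9 to 37.3 FPKM with shNC and 27.3 to 33.3 FPKM with the knockdown, nearly all of it from CD68 and COL1A1, and PTPRC was not analysed here. Whether these levels had a part in the values of the death targets was not tested.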

How the data were processed

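Polyadenylated RNA of HCT116 cells was sequenced in 3 shNC and 3 PLEK2 knockdown libraries, grouped and numbered by the labels. Per gene and library, the authors deposited an estimated count (84.2% to 85.4% of these were whole) and an FPKM value, whose header names no unit. The submitters' processing notes name HISAT2 2.0.4, Bowtie2 2.2.5, RSEM 1.2.12, DESeq2 1.4.5 and the mouse build GRCm38.p6, although all 17047 gene identifiers carry the human taxon number. Positions are therefore from GENCODE v44 (GRCh38) and promoter windows from RefSeq (GRCh38.p14), and either may differ from the annotation behind the counts. Columns with the authors' group means and comparisons (fold changes and p-values) were not used.

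Counts were rounded, filtered with filterByExpr and scaled by TMM, and edgeR 4.0.16's quasi-likelihood test was fitted to all 6 libraries (R 4.3.3), with Benjamini-Hochberg adjustment over 12959 genes at 0.05. Standard errors were obtained as the absolute log2 fold change over the root of the F statistic. An exact permutation test of 3 and 3 libraries has 0.1 as its smallest two-sided p, so none was used. The pairing comes from the shared replicate numbers and the values: over 10134 genes, the correlation of deviations from the group mean was 0.741, 0.568 and 0.573 for libraries of the same number and -0.631 to 0.374 otherwise. Pair ratios used TMM-scaled CPM, and their counting standard errors cover counting error only. Alternatives tried were scaling by DESeq2's size factors or by library totals, filters of at least 1 count and of at least 10 counts in every library, DESeq2 1.42.0, limma 3.58.1 on log2(FPKM + 1), the replicate block, and libraries or pairs left out. Leaving a number out of the pair counts was added after seeing the data. The fits were tested on simulated data.

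The 10 genes and all lists were chosen, from general knowledge, with earlier results of these data known. Genes named were the 10, PLEK2, CDKN1A, MDM2 and, from each list, those passing in either fit or otherwise those with the smallest p. FADD, CFLAR, RIPK1, TNFRSF10D, APAF1, BIRC5, PIDD1 and PDPK1 were named after their values were seen. Some genes are not reported here.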

Additional observations from a re-analysis of the deposited data

How the results depend on the processing

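The log2 fold changes of TNFRSF10B (0.18 to 0.26), BAX (0.11 to 0.17), AEN (0.061 to 0.13), FAS (0.076 to 0.43) and TRIAP1 (0.032 to 0.24) were positive under all 18 alternatives. Their adjusted p from edgeR, DESeq2 or limma, where given, stayed above 0.05 except for TNFRSF10B with the replicate block and library totals. That fit made the count of members passing 1. FAS had no adjusted p in DESeq2 with the block. TNFRSF10A was positive with DESeq2 size factors (0.0048), library totals (0.028), at least 1 count (0.00603), at least 10 counts (0.0061), DESeq2 (0.0048), limma (0.032), the block with library totals (0.0302), DESeq2 with the block (0.0079), and the block without pair 1 (0.023) or 2 (0.0404). Leaving out 1 library gave -0.073 to 0.073 for TNFRSF10A, -0.087 to 0.46 for BBC3, -0.032 to 0.17 for PHLDA3, -0.21 to 0.50 for PMAIP1, -0.024 to 0.46 for TP53I3 -0.00597 to 0.66 for CDKN1A and -0.37 to -0.017 for MDM2. The block without pair 1 gave -0.094 for BBC3 and -0.0073 for PHLDA3. The cause was not tested.

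With the replicate block, 1 gene each passed in the mitochondrial list (BCL2L11) and among the other p53 targets (ZMAT3), as with the block and library totals. Of all genes, 0.849% and 1.48% passed in these 2 fits. Of these 2 lists, DESeq2 with the block called 1 gene (ZMAT3), beside 57 of 12959 genes, with an adjusted p for only 5 of the 10 members. In edgeR with the block and without pair 1, 528 of 13014 genes passed. Among them were 2 mitochondrial genes (BCL2L11 and APAF1), 3 other p53 targets (PIDD1, ZMAT3 and APAF1, which is in both lists) and 1 AKT partner (PDPK1). Without pair 3, 297 of 12988 genes passed, among them 2 mitochondrial genes (BCL2L1 and BCL2L11) and 1 other p53 target (ZMAT3). BBC3 and TP53I3 had at most 192 reads per library, and the counting standard error of their pair ratios was at least 0.17.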
